A study of Mus musculus with 6 samples.

Results

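T cells read 2 kinds of signal from the cells that present antigen to them, a costimulatory signal that allows activation and an inhibitory, or checkpoint, signal that limits it. CD28 and ICOS are costimulatory receptors, CTLA-4 competes with CD28 for the ligands CD80 and CD86, and PD-1 inhibits the cell when it binds PD-L1 or PD-L2. LAG-3, TIM-3, TIGIT and BTLA are further inhibitory receptors. After an infarct, leukocytes enter the damaged ventricle, and T cells are a small part of them.

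The 10 genes of this system that were examined are Pdcd1 (PD-1), Cd274 (PD-L1), Pdcd1lg2 (PD-L2), Ctla4, Cd28, Icos, Lag3, Havcr2 (TIM-3), Tigit and Btla. They were taken by symbol from 26012 genes in the expression table, and a mean of 1 normalized count or more over all hearts was required. All 10 met this, the lowest being Pdcd1lg2 at 3.65 and the next Tigit at 8.26, and 0 were set aside.

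The RNA was from the ventricles of 6 mice, C57BL/6 males aged 8 weeks when the left anterior descending coronary artery was ligated to cause myocardial infarction (MI). All received 10 μg of synthetic microRNA mimic by direct injection into the heart next to the ligature, control mimic in 3 mice (control hearts) and miR-19a/19b mimic in 3 (miR-19 hearts), and hearts were collected 4 days after MI. A mimic is an RNA duplex that stands in for the mature microRNA. Both groups carry the infarct and the injection, and no heart without MI is part of the comparison. The paper names fresh ventricular tissue without saying which part, so infarct, border and remote myocardium may be mixed. The cells that took up the mimic are not known from these libraries.

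The libraries held 19398196 to 23645308 reads on genes each. A pair of libraries of the miR-19 group stood apart in their tissue markers. Replicate 3 had the lowest sum of 5 cardiomyocyte markers (245954 normalized counts, against 401999 to 721068 in the other hearts), and replicate 1 had 2282 normalized counts over 6 skeletal muscle markers, against 28.3 to 69.2 in the other hearts.

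Mature miR-19a-3p and miR-19b-3p are shown first because they are the molecules that the injected mimics stand in for. They are given from RefSeq (GRCm38.p6), with the seed, bases 2 to 8 from the 5′ end, in capitals.
mmu-miR-19a-3p: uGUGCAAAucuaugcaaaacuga
mmu-miR-19b-3p: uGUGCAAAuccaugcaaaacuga
Both are 23 bases long, share the seed GUGCAAA and differ by U11C, with miR-19a first and positions counted from the 5′ end. The gene of miR-19a lies on chromosome 14 (chr14:115044048-115044070, plus strand). The same mature miR-19b comes from chr14:115044358-115044380 (plus strand) and from chrX:52741991-52742013 (minus strand).

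The longest annotated 3′ untranslated region of each of the 10 genes in GENCODE M21 (GRCm38) was searched on the transcript strand for the 8-mer TTTGCACA and for its 7-mers TTTGCAC and TTGCACA. Only the genes of the PD-1 ligands held a match, 1 each, in 3′ untranslated regions of 2686 bases for Cd274 and 672 bases for Pdcd1lg2. The sites are printed with their flanks in the orientation of the transcript, the 7 matched bases in capitals.
Cd274: gcagctggtccTTGCACAgtgaccttttc
Pdcd1lg2: aggacctgccaTTTGCACttttgaaccct
The matched bases are at chr19:29385643-29385649 for Cd274 and chr19:29470609-29470615 for Pdcd1lg2, both on the plus strand, 234 and 120 bases into the untranslated region. The Cd274 match covers seed bases 2 to 7 and an A, without base 8, and the Pdcd1lg2 match covers seed bases 2 to 8. The other 8 genes held 0 matches. Of 15914 tested genes with an annotated 3′ untranslated region, 18.3% held at least 1 such match. The median length of these regions was 1100 bases, below that of Cd274. A match of letters is a description and not a measured site of repression.

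The question asked of the RNA was which transcripts differ between miR-19 and control hearts. The deposited value of a gene is its read count divided by a size factor of the library, called the normalized count here. Limma compared the groups on a log2(normalized count + 1) scale for 21126 genes whose mean was 1 or more, so a log2 fold change is the miR-19a/19b mimic mean minus the control mimic mean on that scale and understates the change of genes with few reads. After adjustment over all genes tested, 0 of the 10 genes had a p-value under 0.05 and each stood at 0.9996 in limma, where 0% of all genes tested were called in either direction. DESeq2 called 29 genes, none of them among the 5 of the 10 to which it gave an adjusted p-value (Cd274, Cd28, Lag3, Havcr2 and Btla), and it gave none to Pdcd1, Pdcd1lg2, Ctla4, Icos and Tigit. At an unadjusted p-value under 0.05, 2 of the 10 genes were lower, PD-1 and its ligand PD-L1, against 2.63% of all genes tested, and 0 of the 10 were higher, against 1.39%, or 2 in either direction against 4.01%. For 3 of the 10 genes, Pdcd1, Cd274 and Icos, the ranges of the groups were separate, all lower in miR-19 hearts, where 5.3% of all genes tested were lower without overlap, 3.9% higher and 9.2% either. For Pdcd1 the nearest hearts, control replicate 1 and miR-19 replicate 1, held 10 reads each, so only their size factors separate them. Over the 10 genes, 7 had a negative log2 fold change and the median was -0.23, and over all genes tested 49.2% were negative and the median was 0.0041. Without miR-19 replicate 1 the median of the 10 was -0.08, with 9 negative, and without replicate 3 it was -0.36, with 7 negative. With 3 hearts in each group, 0.1 is the smallest p-value of an exact permutation test. A limma p-value sets the difference between the groups against a variance between hearts that is moderated over all genes tested.

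**Figure D1:**
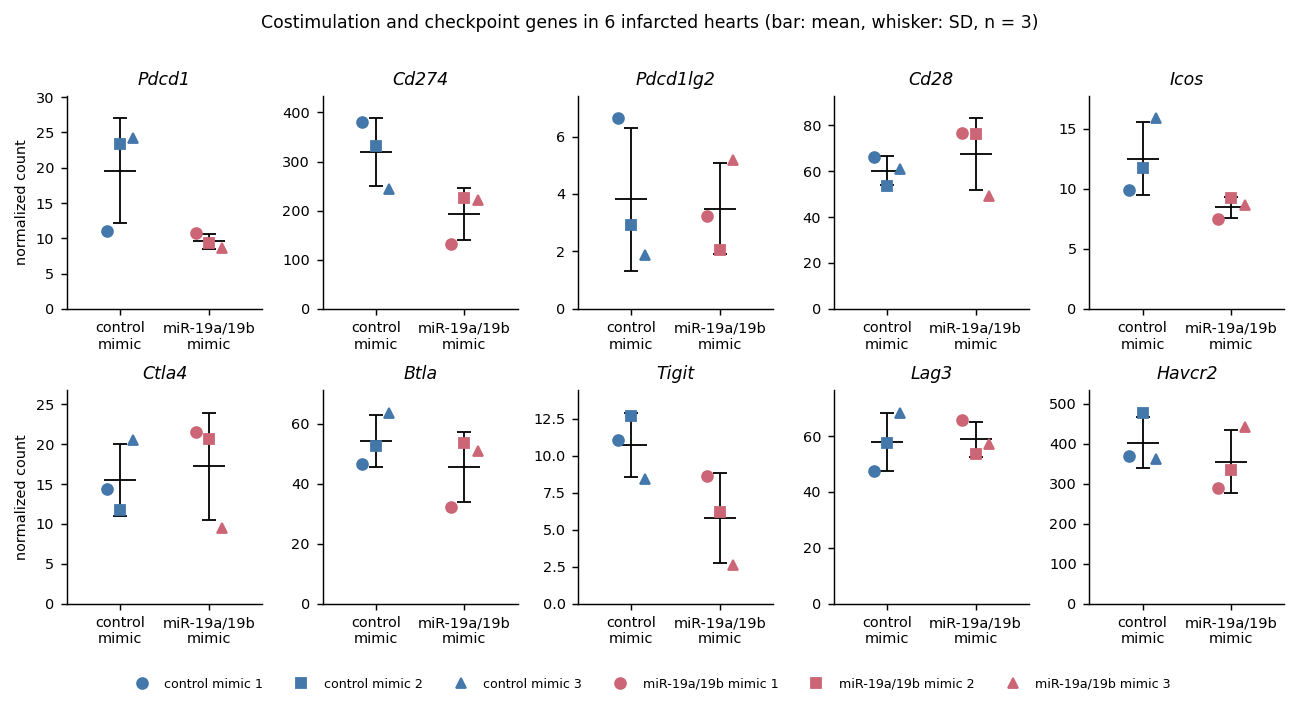
Normalized counts of the 10 genes in each heart (y axis from 0, a scale of its own for each gene), with control hearts in blue and miR-19 hearts in red, the symbol giving the replicate number. The horizontal bar is the mean and the whisker the SD of 3 hearts, and the red and blue points of Pdcd1, Cd274 and Icos do not overlap.

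Cd274, on chromosome 19 from 29367455 to 29388095 (ENSMUSG00000016496, plus strand), encodes PD-L1, which cells of many kinds place on their surface under interferon and which inhibits PD-1-bearing T cells. Its normalized counts were 380.2, 331.8 and 243.8 in control replicates 1, 2 and 3. They were 132.3, 225.8 and 221.3 in miR-19 replicates 1, 2 and 3. Every miR-19 heart was below every control heart, with replicate 1, the library with skeletal muscle transcripts, the lowest. The means were 319 ± 69.1 (SD, n = 3) and 193 ± 52.7, a change of -39.4% in miR-19 hearts. The log2 fold change was -0.74 (standard error 0.24, 95% interval from -1.28 to -0.20). Without miR-19 replicate 1 it was -0.49, and without replicate 3 it was -0.85 (adjusted p = 0.0812 from limma). Without control replicate 1, the highest heart, it was -0.60 and no longer under an unadjusted p-value of 0.05. At between 123 and 344 reads per heart, counting alone gives a coefficient of variation of 5.63% in control hearts and 7.08% in miR-19 hearts, below the 21.7% and 27.3% observed. An antisense gene of GENCODE M21, AC119228.1, overlaps Cd274 and is not a row of the table, and the reads are not stated to have been counted by strand.

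Pdcd1, on chromosome 1 from 94038305 to 94052553 (ENSMUSG00000026285, minus strand), encodes PD-1 itself, the receptor of activated and chronically stimulated T cells. The normalized counts of control replicates 1, 2 and 3 were 11.1, 23.4 and 24.3, from 10, 24 and 26 reads. Those of the miR-19 replicates were 10.8, 9.28 and 8.64, from 10, 9 and 10 reads. The miR-19 hearts were low, while control replicate 1 sat just above them and the other control hearts were well above that. The means were 19.6 ± 7.41 and 9.56 ± 1.09 (SD, n = 3 each), a change of -51.2% in miR-19 hearts. On the log2 scale the fold change was -0.89 (standard error 0.37, 95% interval from -1.74 to -0.04). It ranged from -1.24 to -0.71 with 1 heart left out, and the p-value stayed under an unadjusted 0.05 only without control replicate 1. With reads this few, counting alone gives a coefficient of variation of 22.4% in control hearts, against 37.8% observed, and of 32.2% in miR-19 hearts, against 11.4% observed.

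Pdcd1lg2, on chromosome 19 from 29410919 to 29471157 (ENSMUSG00000016498, plus strand), encodes the other ligand of PD-1, found mainly on dendritic cells and macrophages, and starts 22.8 kilobases beyond the end of Cd274. The control hearts held 6.63, 2.93 and 1.87 normalized counts and the miR-19 hearts 3.23, 2.06 and 5.19, in the order of replicates 1, 2 and 3, from 2 to 6 reads in every heart. The groups overlapped throughout. The log2 fold change of -0.03 had a standard error of 0.54 and a 95% interval from -1.25 to 1.18, so a difference as large as that of Cd274 could not be seen at this depth in either direction. A noncoding gene on the other strand, A930007I19Rik, overlaps Pdcd1lg2. Thus of the neighbouring ligand genes, each with 1 of the 7-mers searched for, Cd274 was at a lower level in all miR-19 hearts and Pdcd1lg2 was too low to compare. Whether either site acts was not tested.

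**Figure D2:**
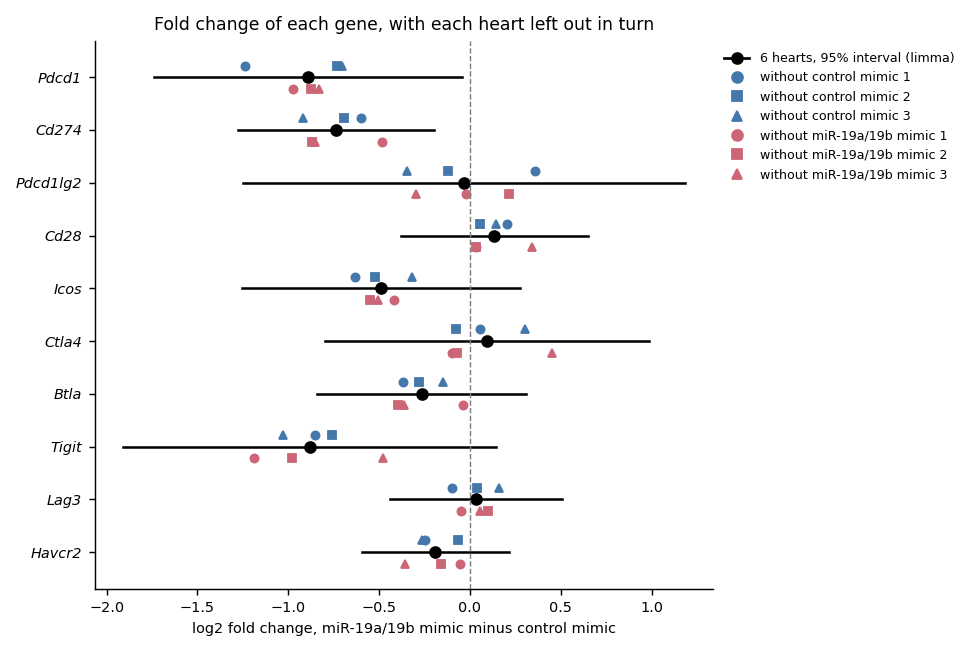
Log2 fold changes of the 10 genes (x axis, miR-19a/19b mimic minus control mimic; below 0 is lower with miR-19a/19b mimic) from limma, with black points and lines for all 6 hearts and the 95% interval. Coloured symbols are the same value with 1 heart left out, and they stay below 0 for Pdcd1, Cd274, Icos, Btla, Tigit and Havcr2, above 0 for Cd28, and on both sides of 0 for Pdcd1lg2, Ctla4 and Lag3.

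Cd28, Ctla4 and Icos lie in a row on chromosome 1, in a span in which 114 kilobases separate Cd28 from Ctla4 and 62.1 kilobases separate Ctla4 from Icos. They encode related receptors with opposite uses. CD28 gives the main costimulatory signal of naive T cells, ICOS sustains helper T cells, and CTLA-4, carried by activated and regulatory T cells, restrains activation. None of the 3 passed the test, and their 95% intervals overlapped.

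Icos (chromosome 1 from 60977927 to 61000320, plus strand, ENSMUSG00000026009) had 9.95, 11.7 and 15.9 normalized counts in control replicates 1, 2 and 3 and 7.53, 9.28 and 8.64 in miR-19 replicates 1, 2 and 3. The groups did not overlap, by a margin of less than 1 normalized count. The mean was 12.5 ± 3.05 in control hearts and 8.49 ± 0.885 in miR-19 hearts (SD, n = 3), and the log2 fold change was -0.49 (standard error 0.34, 95% interval from -1.26 to 0.27). With 7 to 17 reads per heart, this difference did not pass the test. Another gene model of GENCODE M21 on the same strand, Gm37039, overlaps Icos and is not a row of the table.

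Cd28 (chromosome 1 from 60716800 to 60773359, plus strand, ENSMUSG00000026012) had 66.3, 53.7 and 60.7 normalized counts in control hearts and 76.4, 76.3 and 49.3 in miR-19 hearts. Replicates 1 and 2 of the miR-19 group were the highest of the 6 hearts and replicate 3, the library with few cardiomyocyte transcripts, the lowest. The log2 fold change was 0.13 (standard error 0.23, 95% interval from -0.38 to 0.65). It was 0.34 without that library and 0.03 without either of the others of its group. Cd28 was the only one of the 10 genes with a positive log2 fold change in every setting tried.

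Ctla4 (chromosome 1 from 60887000 to 60915832, plus strand, ENSMUSG00000026011) followed the same order within the miR-19 group, with 21.5 and 20.6 normalized counts in replicates 1 and 2 and 9.51 in replicate 3. The control hearts had 14.4, 11.7 and 20.6. Again 1 heart of the miR-19 group was the lowest of all and the others the highest, so the groups overlapped fully. Limma gave a log2 fold change of 0.09 (standard error 0.39, 95% interval from -0.80 to 0.98) and 0.45 without miR-19 replicate 3. A ribosomal protein pseudogene, Rpl18-ps1, lies within the gene model on the same strand, so reads there are uncertain.

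Tigit (chromosome 16 from 43648861 to 43664184, minus strand, ENSMUSG00000071552) encodes an inhibitory receptor of T and natural killer (NK) cells that binds the poliovirus receptor CD155. Its normalized counts were 11.1, 12.7 and 8.41 in control replicates 1, 2 and 3. They were 8.61, 6.19 and 2.59 in miR-19 replicates 1, 2 and 3, the last from 3 reads. Only the lowest control heart and the highest miR-19 heart overlapped. Its log2 fold change was -0.88 (standard error 0.45, 95% interval from -1.91 to 0.15). It was -0.48 without miR-19 replicate 3 and -1.19 without replicate 1, where the unadjusted p-value was under 0.05.

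Btla (chromosome 16 from 45224315 to 45252895, plus strand, ENSMUSG00000052013), an inhibitory receptor of B, T and dendritic cells whose ligand is the receptor HVEM, had 46.4, 52.7 and 63.5 normalized counts in control hearts and 32.3, 53.6 and 51.0 in miR-19 hearts. A single heart, miR-19 replicate 1, was below the others. The log2 fold change of -0.27 (standard error 0.25, 95% interval from -0.84 to 0.31) was -0.04 without it.

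Lag3 (chromosome 6 from 124904361 to 124911705, minus strand, ENSMUSG00000030124) binds major histocompatibility complex class II and inhibits T cells. It had 47.5, 57.6 and 68.2 normalized counts in control hearts and 65.6, 53.6 and 57.1 in miR-19 hearts, so that the control hearts held both the lowest and the highest value. The means, 57.8 ± 10.3 and 58.8 ± 6.19 (SD, n = 3), gave a log2 fold change of 0.03 (standard error 0.21, 95% interval from -0.44 to 0.51).

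Havcr2 (chromosome 11 from 46454935 to 46481255, plus strand, ENSMUSG00000020399), which encodes TIM-3, is carried by exhausted and helper T cells and also by macrophages and dendritic cells. Its normalized counts were 369.2, 476.2 and 361.5 in control hearts and 288.3, 335.1 and 441.7 in miR-19 hearts. Replicates 1 and 2 of the miR-19 group were the lowest hearts and replicate 3 the second highest. Limma gave a log2 fold change of -0.19 (standard error 0.18, 95% interval from -0.59 to 0.21), with the groups overlapping. It was -0.36 without miR-19 replicate 3, where the unadjusted p-value was under 0.05, but -0.05 without miR-19 replicate 1 and -0.06 without control replicate 2.

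Levels of the 10 genes were compared per kilobase of the gene model that the table lists. In control hearts Havcr2 stood first at 148 ± 23.6 normalized counts per kilobase (SD, n = 3), followed by Cd274 at 88.0 ± 19.1, Lag3 at 27.4 ± 4.9 and Btla at 16.6 ± 2.66, and the ranges of neighbours in this order did not overlap. Tigit at 11.1 ± 2.24, Pdcd1 at 10.1 ± 3.84 and Cd28 at 9.84 ± 1.03 overlapped with each other, as did Cd28 with Ctla4 at 6.67 ± 1.95. Icos at 3.65 ± 0.889 was below Ctla4 in every heart of the group and overlapped with Pdcd1lg2 at 2.32 ± 1.52. In miR-19 hearts the first 4 genes and the last 2 kept their places, while Cd28 stood at 11 ± 2.55, Ctla4 at 7.39 ± 2.87, Tigit at 6.02 ± 3.14 and Pdcd1 at 4.95 ± 0.562 per kilobase. Cd274 and Havcr2, both carried by myeloid cells as well, made up between 65.1% and 78.1% of the summed normalized counts of the 10 genes in a heart.

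**Figure D3:**
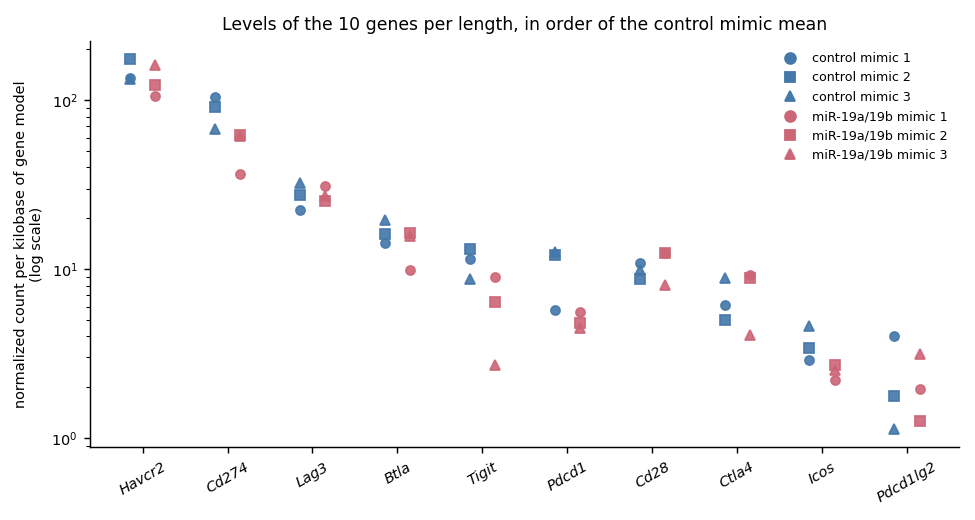
Normalized counts per kilobase of gene model (y axis, log scale) of each gene in each heart, in the order of the control mimic mean, with control mimic in blue, miR-19a/19b mimic in red and the symbol giving the replicate. Havcr2, Cd274, Lag3 and Btla stand apart at the top in that order in control hearts, and Pdcd1 and Tigit lie lower within the order in miR-19 hearts.

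In RNA of ventricular tissue, a lower level of a receptor can be fewer cells that carry it or less RNA in each of them. These cannot be told apart here. The markers of the cells that could carry the 10 genes were therefore summed. All 12 T cell markers had a lower mean in miR-19 hearts, and their sum was 313 to 467.5 normalized counts in control hearts and 269 to 291 in miR-19 hearts, without overlap. The T cell receptor complex genes among them (Cd3d, Cd3e, Cd3g and Cd247) summed to 55.1 to 104 and 52.7 to 65.0, with overlap. Cd247, the largest part of this sum, had means of 22.9 and 22.7 in control and miR-19 hearts. Those of Cd3d were 18.4 and 13.9 and of Cd3g 19.4 and 11.7, both with overlap. Cd3e, at 18.4 and 10.3, was lower without overlap, where 5.3% of all genes tested were. This sum, and the percents of it below, therefore do not follow Cd3e closely. All 7 NK cell markers had a lower mean, with sums of 198 to 350.4 and 103 to 170.1. Ncr1 and Klrb1c overlapped between the groups, and the other 5 were lower without overlap, where 5.3% of all genes tested were. The largest of the 7 in control hearts, Gzma, Gzmb, Klrk1 and Prf1, can also come from cytotoxic T cells. The 8 dendritic cell markers summed to 867 to 921 and 757 to 794, and 6 of them had a lower mean. Zbtb46, the largest part of the sum (means 421 and 422 in control and miR-19 hearts), and Clec9a (98.6 and 111) were not lower. Flt3, Xcr1, Cd209a and Ccr7 were lower in every miR-19 heart than in any control heart, where 5.3% of all genes tested were. The sum, and the ratios to it below, therefore do not follow these 4 markers closely. Sums of the B cell, macrophage, neutrophil, endothelial and fibroblast markers overlapped between the groups, and 0 of the markers on any of these lists was at 0 in all hearts. The part of these cells in the values of the 10 genes was examined only by the ratios that follow.

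**Figure D4:**
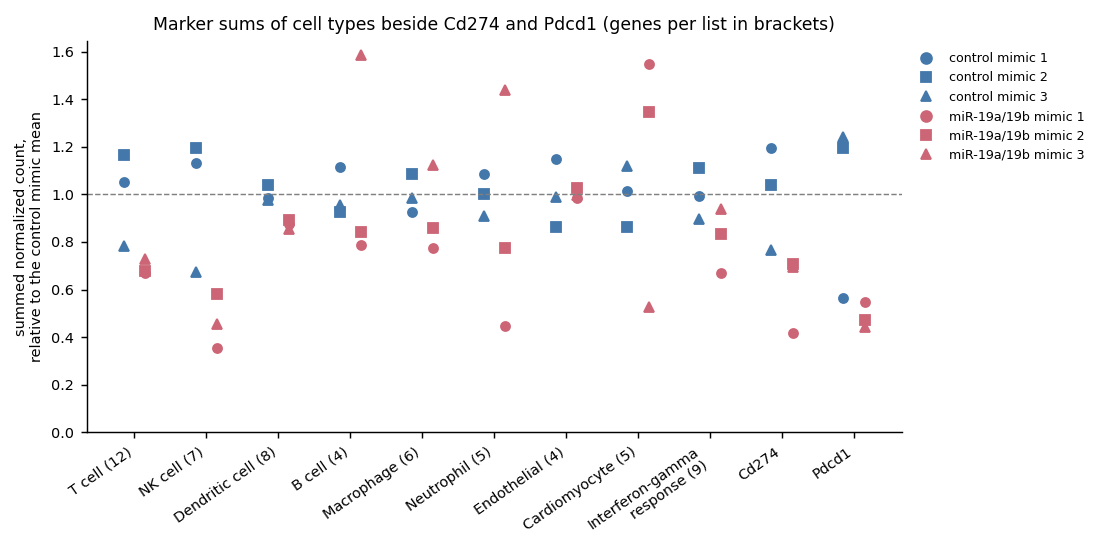
Summed normalized counts of cell type marker lists in each heart relative to the control mimic mean (y axis, dashed line at 1), beside Cd274 and Pdcd1, with control mimic in blue, miR-19a/19b mimic in red and the symbol giving the replicate. The red and blue points do not overlap for the T cell, NK cell and dendritic cell lists, Cd274 and Pdcd1, and the cardiomyocyte list spreads from 245954 to 721068 normalized counts among miR-19 hearts.

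Each gene was set against the summed counts of the T cell receptor complex genes of the same heart, as a percent of that sum. Pdcd1 was 28.2% ± 16.8 in control hearts and 16.5% ± 3.37 in miR-19 hearts (SD, n = 3), and the groups overlapped (exact permutation test, two-sided, p = 0.4). Icos was 17.8% ± 9.92 and 14.5% ± 0.369 (p = 0.7 in the exact permutation test) and Tigit 14% ± 2.99 and 10.1% ± 5.95 (p = 0.4 in the exact permutation test). The ratio of the miR-19 mean to the control mean was 0.586 for Pdcd1 on this scale and 0.488 in normalized counts, and for Tigit 0.72 and 0.541. With 3 hearts a group and few reads in the T cell receptor complex genes, these comparisons do not show whether the lower levels go with T cell content. Cd28 went the other way, at 80.9% ± 25.5 and 116% ± 29.9 (p = 0.2 in the exact permutation test), and Ctla4 was at 22% ± 13.2 and 29.7% ± 12.3 (p = 0.5 in the exact permutation test). Lag3 was 81.1% ± 39.5 and 102% ± 21.2, and Btla 75.8% ± 36.0 and 77.3% ± 14.2, with overlap in both. Havcr2 was 540% ± 162 and 608% ± 134, and Cd274 411% ± 40.1 and 327% ± 67.9, with overlap in both. Relative to the constant region genes Trac, Trbc1 and Trbc2, Cd274 was 334% ± 35.3 and 317% ± 69.7, and Havcr2 427% ± 58.4 and 586% ± 108. Relative to all 12 T cell markers Havcr2 was 102% ± 13.9 and 127% ± 22.5. Over the 10 genes and these 3 denominators, Havcr2 relative to the constant region genes was the only case without overlap, and it was higher in miR-19 hearts (p = 0.1 in the exact permutation test, the smallest possible).

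**Figure D5:**
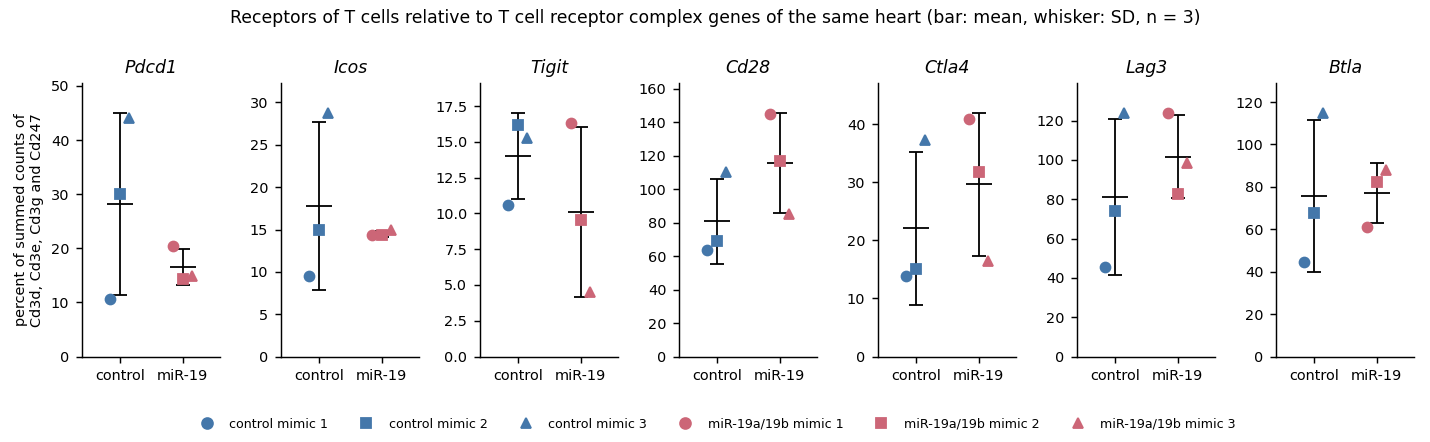
Counts of 7 receptor genes as a percent of the summed counts of Cd3d, Cd3e, Cd3g and Cd247 in the same heart (y axis from 0), with control mimic in blue, miR-19a/19b mimic in red, the bar at the mean and the whisker for the SD of 3 hearts. The groups overlap for all 7 genes. The SD is larger in control than in miR-19 hearts for Pdcd1, Icos, Lag3, Btla and, slightly, Ctla4, and smaller for Cd28 and Tigit.

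PD-L1 and TIM-3 are carried by myeloid and other cells, so ratios to their markers were added after the values had been seen. Havcr2 stood at 18.9 ± 1.67 counts per 1000 counts of the macrophage markers in control hearts and at 18.1 ± 0.562 in miR-19 hearts (SD, n = 3, exact permutation test, two-sided, p = 0.6). This ratio lay between 17.3 and 20.6 in all 6 hearts, while that to 1000 dendritic cell marker counts ranged from 372 to 583, with means of 452 ± 56.2 and 459 ± 111. Cd274 per 1000 macrophage marker counts was 15.1 ± 3.87 and 9.89 ± 2.25, with overlap (p = 0.2 in the exact permutation test), and per 1000 dendritic cell marker counts 359 ± 76.8 and 249 ± 68.1, with overlap. Per 1000 endothelial marker counts it was 17.1 ± 3.74 and 10.3 ± 2.67, without overlap (p = 0.1 in the exact permutation test, the smallest possible). The endothelial sums had means of 18719 and 18792 in control and miR-19 hearts, so this ratio largely repeats the separation of Cd274 itself. Against 1000 NK cell marker counts, Tigit was at 37.3 ± 4.66 and 46.4 ± 33.1 and Lag3 at 217 ± 110 and 459 ± 163, each with overlap and with the higher mean in miR-19 hearts. Btla per 1000 B cell marker counts was 383 ± 87.3 and 318 ± 114, also with overlap.

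Cd274 is a gene of the interferon-gamma response, and 9 other genes of that response were read beside it. Of these, 8 had a negative log2 fold change and the median was -0.34, which was -0.18 without miR-19 replicate 1 and -0.54 without replicate 3. At an unadjusted p-value under 0.05, 3 were lower, against 2.63% of all genes tested, and 0 were called after adjustment over all genes. Cxcl9, a chemokine that draws activated T cells, had 209.8 ± 47.6 and 129.7 ± 21.3 normalized counts (SD, n = 3, log2 fold change -0.68), and Ciita, the activator of class II genes, 203 ± 27.2 and 142 ± 20.9 (log2 fold change -0.51). Ciita was not under the threshold without control replicate 2 or 3 or miR-19 replicate 2 (-0.45, -0.46 and -0.40). Per 1000 counts of the 9 genes, Cd274 was at 79.9, 62.5 and 57.0 in control replicates 1, 2 and 3 and at 41.4, 56.7 and 49.3 in miR-19 replicates 1, 2 and 3. The groups did not overlap, by a margin of under 1 between the nearest hearts (p = 0.1 in the exact permutation test, the smallest possible), a ratio chosen after the values had been seen.

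The list of ligands and counter-receptors held 22 genes, 21 of them tested, with 13 negative log2 fold changes and a median of -0.04. The ligands of CD28 and CTLA-4 were Cd80 at 156 ± 36.1 and 164 ± 21.1 normalized counts (log2 fold change 0.10) and Cd86 at 184 ± 11.3 and 154 ± 12 (log2 fold change -0.25). Each miR-19 heart had less Cd86 RNA than any control heart, at 142 to 166 against 171 to 193, and Cd80 overlapped. Cd86 was 1 of 3 genes of the list that were lower without overlap, where 5.3% of all genes tested were. Icosl, the ligand of ICOS, had 316 ± 20.5 and 309 ± 10.9. Tnfrsf14, which encodes the BTLA ligand HVEM, had 197 ± 23.9 and 201 ± 36.4, and Lgals9, whose product galectin-9 binds TIM-3, 3010 ± 125 and 2636 ± 477. The TIGIT ligands Pvr and Nectin2 had 909 ± 62.7 and 875 ± 130, and 1362 ± 212 and 1383 ± 63.9 normalized counts. For none of Icosl, Tnfrsf14, Lgals9, Pvr and Nectin2 was the unadjusted p-value under 0.05 in limma. Of the 21 genes, 1 was lower at that threshold, where 2.63% of all genes tested were. It was Tnfsf18, the ligand of the costimulatory receptor GITR, at 13.2 ± 3.18 and 5.53 ± 4.28 (log2 fold change -1.42, standard error 0.62). Its miR-19 replicate 3 stood at 0.864 normalized counts, and without that heart the log2 fold change was -0.68 and not under the threshold, nor was it without any 1 control heart.

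Of 19 other costimulatory or inhibitory receptors, 18 were tested, 11 had a negative log2 fold change and the median was -0.36. The 1 gene of the 18 at an unadjusted p-value under 0.05, where 2.63% of all genes tested were lower, was Lair1, a collagen receptor that inhibits leukocytes, with 905, 968 and 901 normalized counts in control hearts and 566, 674 and 895 in miR-19 replicates 1, 2 and 3 (log2 fold change -0.40, standard error 0.16). Without miR-19 replicate 3 it was -0.58 (adjusted p = 0.0227 from limma), and without any other heart it was not under the threshold, with -0.25 without miR-19 replicate 1. Of 18 intracellular partners and T cell state factors, 12 had a negative log2 fold change, with a median of -0.14, and 2 were lower at that threshold, against the same 2.63%. These were Tbx21 and Eomes, the T-box factors of cytotoxic T and NK cells. Tbx21 had 19.9 ± 9.39 and 6.30 ± 1.18 normalized counts (log2 fold change -1.43), lower in each miR-19 heart than in any control heart. It was the only 1 of the 18 that was lower without overlap, where 5.3% of all genes tested were. Eomes had 21.9 ± 8.18 and 9.99 ± 5.18 (log2 fold change -1.12), with overlap, and was not under the threshold without miR-19 replicate 1 (-0.66) or control replicates 1 (-1.04) or 2 (-0.88). No gene of these lists was higher at that threshold, where 1.39% of all genes tested were, and with all 6 hearts none was called after adjustment over all genes.

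The promoters of Cd274 and Pdcd1 are shown because these were the genes with unadjusted p-values under 0.05. They are given from RefSeq (GRCm38.p6) as 250 bases before to 50 bases after the start of the gene, on the strand of the gene. Each was searched on both strands for the interferon-stimulated response element core (GAAA and, after any 2 bases, GAAA again), the interferon-gamma activated site TTCNNNGAA and the NFAT core GGAAA, and matches are in capitals. The NFAT core reads TTTCC on the other strand.
Cd274 (chr19:29367188-29367487, plus strand): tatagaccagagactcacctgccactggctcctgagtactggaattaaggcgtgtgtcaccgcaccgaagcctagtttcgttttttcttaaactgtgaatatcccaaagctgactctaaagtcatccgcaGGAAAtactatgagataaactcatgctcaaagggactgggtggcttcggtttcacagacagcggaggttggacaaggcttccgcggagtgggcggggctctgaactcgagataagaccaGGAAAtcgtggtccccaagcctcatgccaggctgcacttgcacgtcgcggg
Pdcd1 (chr1:94052504-94052803, minus strand): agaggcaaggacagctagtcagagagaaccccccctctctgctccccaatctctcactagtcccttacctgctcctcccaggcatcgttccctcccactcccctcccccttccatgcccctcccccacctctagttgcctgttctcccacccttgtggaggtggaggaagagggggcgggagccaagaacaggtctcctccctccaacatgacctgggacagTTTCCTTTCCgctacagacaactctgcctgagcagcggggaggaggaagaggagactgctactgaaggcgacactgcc
Each of these windows held 2 NFAT cores and 0 of either interferon motif. In Pdcd1 the NFAT cores stood side by side, 28 and 23 bases before the start. Promoters were found for 7 of the 10 genes, and the interferon motifs were absent from all 7 windows, where 3.44% of all 32851 promoters held the response element core and 8.3% held TTCNNNGAA. The NFAT core was in 5 of the 7 windows, all but those of Havcr2 and Btla, and in 61.3% of all promoters.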

How the data were processed

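Per the labels and the paper's methods, polyadenylated RNA was sequenced as paired reads, cleaned, aligned with STAR 2.5.1b and counted per gene with HTSeq 0.6.0. The submitters' processing notes also name DESeq2 1.10.1 and mm9, while 99.9% of the gene coordinates found in GENCODE M21 overlap it and 82.7% are identical, so coordinates are given as the table lists them, on GRCm38. The deposited signal is each gene's read count divided by 1 size factor per library. The authors' own log2 fold changes, p-values and adjusted p-values in the table were not used, nor was their list of genes selected by them.

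Multiplied by its size factor, 100% of each library came out as whole reads (tolerance 0.01 reads), and reads were recovered in this way. Limma 3.58.1 (R 4.3.3) with a trended prior was fitted to log2(normalized count + 1) for the 21126 genes whose mean was 1 or more, with Benjamini-Hochberg adjustment across that whole set. The scripts were tested on simulated data. Alternatives were edgeR 4.0.16, DESeq2 1.42.0 and limma-voom on recovered reads, a pseudocount of 0.1, no filter, a mean of at least 10, a replicate block and each heart left out. Between 19398196 and 23645308 reads per heart were counted, and counting error is given beside low values. Replicate hearts differed beyond sampling noise, with a chi-square of at least 10.3 times its degrees of freedom. No label says more about how far replicates are independent than that they are separate samples.

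The 10 genes and the lists were chosen with earlier results of these data known. Named are the 10 genes, 7 ligands fixed by name, and list genes with an unadjusted p-value under 0.05, at most 5 a list, of which 1 is not reported here. Where a symbol of a list was newer than the table's (Nectin2, Nectin3), it was matched by gene identifier.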

Additional observations from a re-analysis of the deposited data

How the results depend on the processing

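No setting brought any of the 10 genes under 0.05 after adjustment, where DESeq2 gave 5 of them no adjusted p-value. Over all genes, 0 were called in limma against 29 with DESeq2 on recovered reads, and between 0 and 515 with 1 heart left out, the largest number without miR-19a/19b mimic replicate 3. Without that heart 3070 genes had an unadjusted p-value under 0.05, where the other hearts left out gave 612 or more and all 6 hearts gave 848. The 2 genes of the 10 under that threshold, Pdcd1 and Cd274, became 1 without a filter (Cd274) and 1 with the replicate block (Cd274). Between 1 and 2 genes were under it with a heart left out, the cause of which was not tested, but never Pdcd1 and Cd274 together. Cd274 was joined by Tigit without miR-19 replicate 1 and by Havcr2 without miR-19 replicate 3. Pdcd1 stood alone without control replicate 1, and Cd274 alone without any other heart. No pairing by replicate number was seen, as the deviations of same-numbered hearts from their group means correlated at -0.0195, -0.168 and -0.289 over 15513 genes. Hearts of unlike number correlated at -0.243 to 0.309. With 3 hearts a group, whose deviations depend on each other, these values cannot settle whether hearts were handled in pairs. With all 6 hearts, 67 of 68 alternative log2 fold changes of the 10 genes kept their direction, the exception being Pdcd1lg2 at 0.0312 with limma-voom. With 1 heart left out, Pdcd1lg2 ranged from -0.35 to 0.36, Ctla4 from -0.10 to 0.45, Lag3 from -0.10 to 0.16, Cd28 from 0.03 to 0.34, Havcr2 from -0.36 to -0.05 and the interferon-gamma-response median from -0.54 to -0.18. The median of the other receptors was -0.16 over genes with a mean of at least 10, where fewer genes are tested, and from -0.40 to -0.18 with 1 heart left out, and that of the intracellular partners was -0.0807 with edgeR, -0.0784 with DESeq2 and from -0.14 to -0.0485 with 1 heart left out. Relative to T cell receptor complex genes, the difference in percent of their sum, miR-19a/19b mimic minus control mimic, was -3.3 for Icos but 0.174 relative to Trac, Trbc1 and Trbc2, and with 1 heart left out it ranged from -7.41 to 2.21 for Icos, from -24.5 to 126 for Havcr2 and from -14.1 to 21.2 for Btla. Read depth limits Pdcd1lg2, Tigit, Icos, Pdcd1 and Ctla4 most, which had at most 26 reads in a heart.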
